A study of Arabidopsis thaliana with 8 samples.

Results

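Transcript levels of npr1-1 seedlings were set against those of Col-0 seedlings over both treatments, with the mean of the 4 npr1-1 arrays against the mean of the 4 Col-0 arrays of a series of 8 arrays. The tissue was whole Arabidopsis thaliana seedlings of 2 weeks, grown in MS medium that was exchanged for either 2 mM salicylic acid (SA) or water for 24 h. The groups were npr1-1 with SA, npr1-1 with water, Col-0 with SA and Col-0 with water, with 2 biological replicates each. Col-0 is the wild type, and npr1-1 carries a mutant allele of NPR1 in every cell of the plant, so a difference in a whole seedling can come from any organ. The methods give the same growth conditions, stratification and exchange of medium for both genotypes. Whether the genotypes were grown and processed together is not stated. NPR1 itself was not analysed here, so the genotype labels were not checked on the mutated gene.

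NPR1 is a receptor of SA and a transcriptional coactivator. In plants with raised SA it enters the nucleus and works with TGA transcription factors at the promoters of defence genes, among them many that encode WRKY factors and pathogenesis-related proteins. NPR1 is also known for its part in the antagonism between SA and jasmonate, the hormone of the wound response. The npr1-1 mutant was isolated for its loss of defence gene induction by SA.

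Values were the deposited log2 values of Affymetrix ATH1 arrays, where a probe set is the group of probes that reports 1 transcript and a difference of 1 is a doubling. In each of 22746 probe sets the difference is npr1-1 minus Col-0, with SA and water weighted equally, so it stays the same whichever npr1-1 arrays had SA. A difference was called at a Benjamini-Hochberg adjusted p under 0.05 in limma, and SE is the standard error of that difference from 8 arrays with 2 in each of 4 groups. Replicates of a group correlated at 0.994 to 0.996 over all probe sets, arrays of the same genotype with the other treatment at 0.955 to 0.966, and arrays of different genotypes at 0.922 to 0.963. Genotype took 40.1% of the sum of squares around each probe set's mean, the interaction of genotype and treatment 39.3%, treatment 13.1% and replicates 7.56%. Between the SA and the water arrays 6419 probe sets were called in npr1-1 and 5342 in Col-0, and of the 3231 called in both genotypes 2756 (85.3%) ran in opposite directions. The effects of SA in npr1-1 and in Col-0, which share no array, had a Pearson correlation of -0.50 and a Spearman correlation of -0.39 over the probe sets, given as a description. The treatment labels of the npr1-1 arrays were kept, and whether they are right was not tested. Exchanging them would set each npr1-1 pair against the other Col-0 pair, so that every difference given under SA or in water, each count of such differences and each interaction below rests on these labels, while the mean over both treatments does not. It would also swap the shares of the interaction (39.3%) and of treatment (13.1%) in the sum of squares, and leave that of genotype as it is. The labelling controls averaged 2.04 ± 0.07 on npr1-1 and 2.85 ± 0.53 on Col-0 arrays (SD, n = 4 each), with each npr1-1 array below each Col-0 array (two-sided exact permutation test p = 0.0286, the smallest it allows, adjusted p = 0.1 over 7 control values). The part of this labelling difference in the results below was not tested.

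Transcript levels differed between npr1-1 and Col-0 in 8594 of the 22746 probe sets, or 37.8%. Of these, 4847 (21.3%) were higher and 3747 (16.5%) were lower in npr1-1. With each array centred on its own median the split turned to 3896 higher and 5297 lower, since the array medians averaged 1.45 on npr1-1 and 1.36 on Col-0 and centring lowered each difference by 0.09. The larger differences ran the other way from the count of rises. A call with a difference of at least 1 was made in 731 rises (3.21%) and 899 falls (3.95%), a difference of at least 2 in 15 rises and 156 falls, and a difference of at least 3 in 1 rise and 17 falls. All 4 npr1-1 arrays lay above all 4 Col-0 arrays in 2407 probe sets (10.6%) and below them in 2000 (8.79%), or in 19.4% either way, and the gap between the nearest arrays reached 1 in 32 probe sets with npr1-1 higher and in 156 with npr1-1 lower. With probe sets sorted by their mean level into 4 classes of equal size, the share called was 2.02% in the dimmest, then 24.8%, 57.6% and 66.7% in the brightest. Over 13356 genes named through 1 symbol, 2630 (19.7%) were higher and 1884 (14.1%) were lower in npr1-1. These 2 shares are given as the background of the gene families below, but they are not matched for level. In the brightest class 1907 of 5687 probe sets were higher and 1886 lower, and in the next class 2077 and 1197 of 5686. Several families had a median level in the brightest class, which starts at 3.75, such as chloroplast genes (5.74) and WRKY factors (4.29). For these families the background shares are too low. Other families had a median level in the second dimmest class, which ends at 1.45, such as cytochrome P450s (0.89). In that class 834 of 5686 probe sets were higher and 578 lower, so for such families the background shares are too high. A family holds the measured genes whose symbol names it, so members known by their locus alone are not counted.

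The largest fall was that of JRG21, a jasmonate-regulated gene whose enzyme hydroxylates jasmonic acid. JRG21 had 2.69 and 2.56 on the npr1-1 SA arrays and 0.96 and 1.84 on the npr1-1 water arrays, against 7.54 and 7.41 on the Col-0 SA arrays and 6.54 and 6.54 on the Col-0 water arrays. All npr1-1 arrays were thus far below all Col-0 arrays, with a gap of 3.84 between the nearest. The difference was -4.99 (SE 0.154, limma adjusted p = 2.99e-09), and no fold is given, since the lowest npr1-1 value lay under its array's median of 1.43. It was -4.85 under SA and -5.14 in water, and the interaction of 0.29 was not called (adjusted p = 0.56). As whole seedlings were measured, fewer cells that express a gene and less RNA per cell cannot be told apart, here and in all results below.

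AT4G22470 fell next, by 4.32 (SE 0.0925, adjusted p = 3.24e-10 in limma). Its values were 5.40 and 5.29 on npr1-1 SA and 2.13 and 2.41 on npr1-1 water arrays, against 8.07 and 8.10 on Col-0 SA and 8.11 and 8.23 on Col-0 water arrays. The Col-0 arrays were nearly level and the npr1-1 arrays labelled SA lay between them and those labelled water. AT1G14550 fell by 3.35 (SE 0.0789) with the same order, at 6.47 and 6.49 on npr1-1 SA and 3.76 and 3.71 on npr1-1 water arrays, against 8.88 and 8.91 on Col-0 SA and 8.02 and 8.01 on Col-0 water arrays. AT3G13950 fell by 3.04 (SE 0.101) with the npr1-1 arrays in the opposite order, at 1.13 and 0.96 on npr1-1 SA and 4.22 and 3.84 on npr1-1 water arrays, against 6.11 and 6.02 on Col-0 SA and 5.12 and 5.05 on Col-0 water arrays. The annotation used here gives these 3 loci no further name.

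CCOAMT, a caffeoyl-CoA O-methyltransferase of phenylpropanoid metabolism, fell by 2.93 (SE 0.0816, limma adjusted p = 2.99e-09). It had 3.74 and 3.88 on npr1-1 SA and 3.01 and 3.01 on npr1-1 water arrays, against 6.51 and 6.55 on Col-0 SA and 6.13 and 6.17 on Col-0 water arrays. In both genotypes the SA arrays were the higher ones, and the genotypes were 2.25 apart at their nearest. DLAH, a DAD1-like acylhydrolase that releases fatty acids from lipids, fell by 2.73 (SE 0.084). It was almost level within npr1-1, at 1.88 and 2.03 with SA and 2.03 and 2.12 with water, against 4.33 and 4.37 with SA and 5.19 and 5.09 with water in Col-0. The remaining genes among the 15 largest falls were AT5G12340 (-3.27), AT2G35730 (-3.03), AT4G16260 (-2.98), AT2G39420 (-2.97), AT2G38240 (-2.90), AT1G26390 (-2.84), Prx37 (-2.81), AT5G40590 (-2.77) and AT1G26410 (-2.68). In each of these 15 genes all npr1-1 arrays lay below all Col-0 arrays, which the choice of the genes required, and the gap ran down to 0.39 in AT1G26390.

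**Figure D1:**
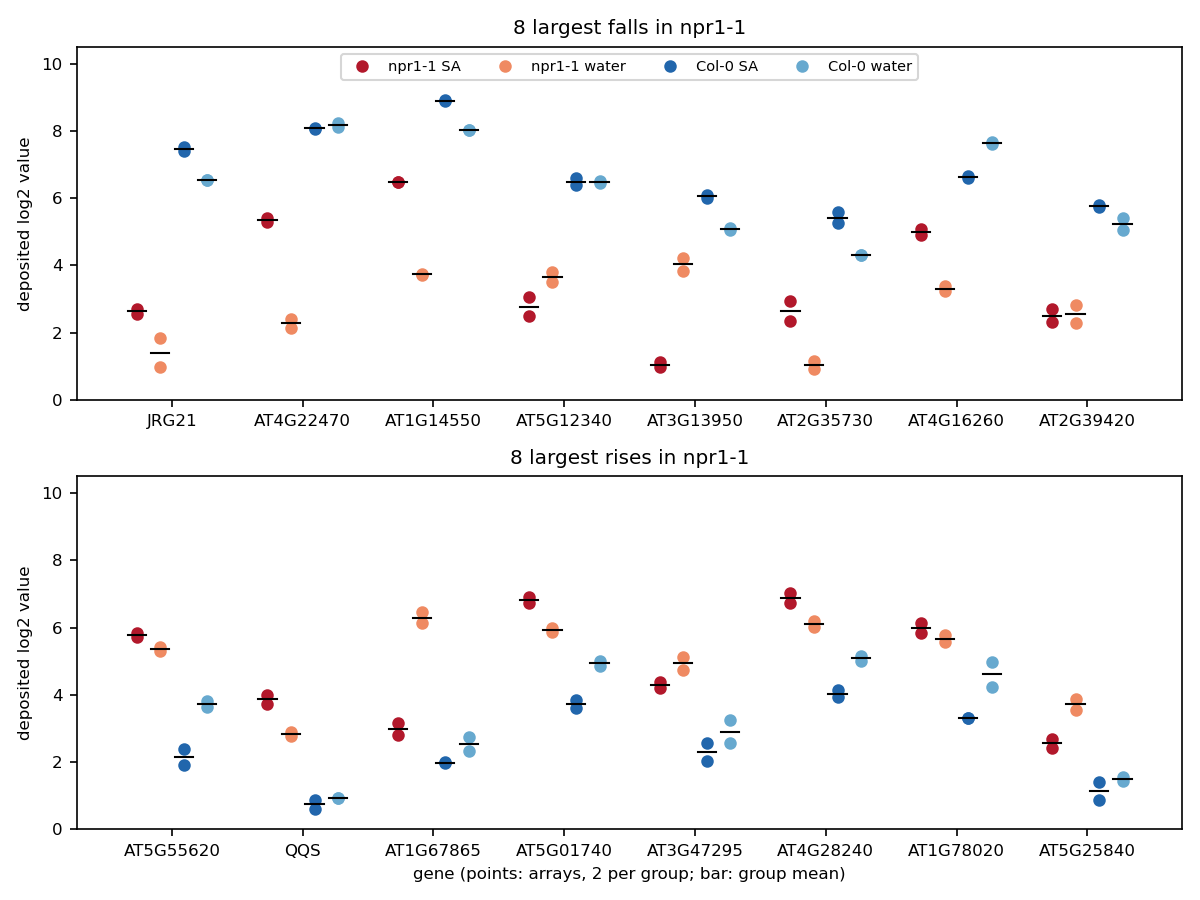
Deposited log2 values (vertical axis) of the 8 genes with the largest falls (top) and the 8 with the largest rises (bottom) in npr1-1 against Col-0, with a point for each array, 2 per group, and a bar at each group's mean. JRG21 lies between 0.96 and 2.69 on the npr1-1 arrays and between 6.54 and 7.54 on the Col-0 arrays.

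A few probe sets were under 2 on every array of 1 genotype and at 3 or above on every array of the other. A value under 2 need not be near the floor of the scale, since every array's median was itself under 2. In 12 probe sets every Col-0 array was at 3 or above and every npr1-1 array under 2, and 3 of these had a single gene name, ATGLR1.2, AT5G47740 and AT1G26410. The reverse held for 1 probe set, that of AT2G15000. AT1G26410 had 1.60 and 1.51 on npr1-1 SA and 0.69 and 1.10 on npr1-1 water arrays, against 4.41 and 4.50 on Col-0 SA and 3.33 and 3.35 on Col-0 water arrays. AT2G15000 had 4.00 and 3.97 on npr1-1 SA and 3.18 and 3.11 on npr1-1 water arrays, against 1.64 and 1.96 on Col-0 SA and 1.80 and 1.59 on Col-0 water arrays. Detection calls were not used here, so a low value is a low signal and not a missing transcript.

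The largest rises were smaller than the largest falls, while the medians of all called rises (0.57) and called falls (-0.59) were similar in size. The largest rise over all probe sets was 3.36, on a probe set that the annotation used here pairs with no gene. The largest rise of a named gene was 2.63 (SE 0.113, limma adjusted p = 2.09e-08) in AT5G55620. AT5G55620 had 5.82 and 5.72 on npr1-1 SA and 5.43 and 5.31 on npr1-1 water arrays, against 1.90 and 2.39 on Col-0 SA and 3.81 and 3.64 on Col-0 water arrays. The npr1-1 arrays lay close together, and the Col-0 arrays were lower with SA than with water.

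QQS, a gene found only in Arabidopsis thaliana that is known to influence leaf starch, rose by 2.52 (SE 0.1, adjusted p = 1.42e-08 in limma). Its values were 3.72 and 4.00 on npr1-1 SA and 2.90 and 2.79 on npr1-1 water arrays, against 0.59 and 0.88 on Col-0 SA and 0.91 and 0.93 on Col-0 water arrays. All Col-0 arrays were under 1, with a gap of 1.86 to the nearest npr1-1 array. AT1G67865 rose by 2.38 (SE 0.122) mostly through the water arrays, with 3.14 and 2.80 on npr1-1 SA and 6.14 and 6.45 on npr1-1 water arrays, against 1.97 and 1.98 on Col-0 SA and 2.75 and 2.33 on Col-0 water arrays. AT1G68490 rose by 1.81 (SE 0.1) by about the same in both treatments, with 6.34 and 6.54 on npr1-1 SA and 6.23 and 6.22 on npr1-1 water arrays, against 4.82 and 4.61 on Col-0 SA and 4.49 and 4.18 on Col-0 water arrays. The other genes among the 15 largest rises were AT5G01740 (2.05), AT3G47295 (2.01), AT4G28240 (1.93), AT1G78020 (1.87), AT5G25840 (1.82), AT2G15000 (1.82), AT2G14460 (1.81), AT5G16070 (1.77), AT2G04795 (1.77), AT1G66940 (1.76) and AT5G16030 (1.76). Of these 15 genes only QQS had a name other than its locus in the tables used here.

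Among genes of SA signalling and defence regulation, 4 of 6 measured were lower in npr1-1, 0 were higher and 2 were not called, with a median difference of -0.76 beside 0.00 over all probe sets. The SA and water arrays disagreed for the 2 that fell most. GRX480, a glutaredoxin that binds TGA factors, had 3.06 and 3.05 on npr1-1 SA and 7.85 and 7.97 on npr1-1 water arrays, against 8.02 and 7.93 on Col-0 SA and 6.87 and 6.67 on Col-0 water arrays. Its mean difference of -1.89 (SE 0.0873) joined -4.92 under SA with 1.14 in water, and both parts rest on the labels of the npr1-1 arrays. UGT76B1, which glucosylates SA and isoleucic acid, likewise joined -6.70 under SA with 4.11 in water into a mean of -1.29 (SE 0.0873, adjusted p = 4.86e-07 in limma). WES1, a GH3 enzyme that conjugates amino acids to auxin and SA, was lower in npr1-1 in both, with 6.98 and 7.15 on npr1-1 SA and 6.53 and 6.34 on npr1-1 water arrays, against 7.45 and 7.76 on Col-0 SA and 8.15 and 8.05 on Col-0 water arrays, a fall of 1.11 (SE 0.099). SAG101, a partner of EDS1 in resistance signalling, fell by 0.41, which joined -0.88 in water with 0.05 under SA, where it was not called.

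WRKY factors, which bind W-box motifs in defence promoters, were lower for 4 and higher for 1 of 6 measured, with a median of -0.84. WRKY6, known from senescence and defence, had 4.23 and 4.37 on npr1-1 SA and 4.02 and 4.03 on npr1-1 water arrays, against 6.09 and 6.12 on Col-0 SA and 5.12 and 5.19 on Col-0 water arrays. It fell by 1.47 (SE 0.0815, limma adjusted p = 1.06e-07) without overlap of the genotypes. WRKY22, which acts downstream of the flagellin receptor, fell by 1.09 (SE 0.1) and WRKY47 by 0.79 (SE 0.0937), both also without overlap. WRKY53, a senescence regulator, fell by 0.89, of which -1.83 stood under SA and 0.05 in water. WRKY20 rose by 0.53.

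Of 4 receptor kinases measured, 2 were lower and 1 was higher. BIK1, the cytoplasmic kinase that pattern receptors phosphorylate, had 5.44 and 5.58 on npr1-1 SA and 5.30 and 4.995 on npr1-1 water arrays, against 6.55 and 6.63 on Col-0 SA and 6.36 and 6.40 on Col-0 water arrays. It was lower by a similar amount in both treatments, with a difference of -1.16 (SE 0.0937, adjusted p = 1.8e-06 in limma) and an interaction of 0.16 that was not called. EFR, the receptor of bacterial elongation factor Tu, fell by 0.42, with an adjusted p of 0.0519 in limma without npr1-1 SA replicate 2. THE1, a sensor of cell wall integrity, rose by 0.73, with 1.38 under SA and 0.07 in water.

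U-box ubiquitin ligases (PUB) were lower for 5 and higher for 2 of 9, with a median of -0.40. PUB22, PUB23 and PUB24, which together dampen responses to microbial patterns, all fell, by 1.56 (SE 0.103), 1.18 (SE 0.11) and 1.36 (SE 0.118). PUB22 had 6.09 and 6.01 on npr1-1 SA and 6.05 and 5.61 on npr1-1 water arrays, against 7.25 and 7.29 on Col-0 SA and 7.68 and 7.76 on Col-0 water arrays. The genotypes did not overlap in PUB22 and PUB23, whereas in PUB24 the npr1-1 water arrays overlapped the Col-0 arrays. PUB25 and PUB26, which mark BIK1 for degradation, rose by 0.52 and 0.62.

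Calmodulin-like proteins, which bind calcium, were lower for 5 and higher for 1 of 7, with a median of -0.99. CML42 had 3.23 and 3.14 on npr1-1 SA and 3.34 and 2.84 on npr1-1 water arrays, against 4.43 and 4.47 on Col-0 SA and 4.28 and 4.56 on Col-0 water arrays, a fall of 1.30 (SE 0.117). CML38 fell by 1.28 (SE 0.1) and CML37 by 1.41 (SE 0.117), and none of these 3 had an interaction that was called. Glutamate receptor channels were lower for 3 and higher for 1 of 8. ATGLR1.2 had 1.57 and 1.02 on npr1-1 SA and 1.43 and 1.35 on npr1-1 water arrays, against 4.03 and 4.22 on Col-0 SA and 3.28 and 3.08 on Col-0 water arrays, a fall of 2.30 (SE 0.121). GLR2.8 fell by 0.55 and GLR2.7 rose by 0.55. Without Col-0 SA replicate 2, 5 of the channels were called lower.

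Secreted defence proteins and the enzymes of the cell wall contained some of the deepest falls. Of 18 chitinases, defensins, thionins and osmotin, 6 were lower and 3 higher, with a median of -0.09, so that the falls were large and few. ChiC, a class V chitinase, had 3.10 and 3.56 on npr1-1 SA and 2.30 and 1.92 on npr1-1 water arrays, against 5.31 and 5.34 on Col-0 SA and 5.37 and 5.31 on Col-0 water arrays. Col-0 was level and npr1-1 lower throughout, by 2.61 (SE 0.118, limma adjusted p = 2.82e-08). OSM34, an osmotin of the thaumatin-like family, had 8.63 and 8.68 on npr1-1 SA and 7.70 and 7.61 on npr1-1 water arrays, against 10.55 and 10.76 on Col-0 SA and 10.20 and 10.30 on Col-0 water arrays, and fell by 2.30 (SE 0.0868). CHI, a chitinase, fell by 2.29 (SE 0.133), which joined -4.07 under SA with -0.51 in water, where it was not called.

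Defensins moved both ways. PDF1.4 fell by 2.16 (SE 0.0999), which joined -4.34 in water with 0.01 under SA, where the difference was not called. PDF1.2b, a jasmonate marker, fell by 0.72 at a level of 0.42 to 0.81 on npr1-1 and 1.04 to 1.71 on Col-0 arrays, and its probe set is of the kind whose probes can also match other transcripts. Its relative PDF1.2 was not called, with a difference of 0.08 (adjusted p = 0.539 in limma) at 0.17 to 0.54 over all arrays. LCR68 had 5.53 and 5.59 on npr1-1 SA and 5.45 and 5.68 on npr1-1 water arrays, against 4.18 and 3.78 on Col-0 SA and 4.49 and 4.65 on Col-0 water arrays, a rise of 1.29 (SE 0.107). LCR69 rose by 1.24 (SE 0.115), and both were without overlap of the genotypes.

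Of 3 class III peroxidases with a PRX symbol, enzymes that oxidise phenolics in the cell wall, 2 fell and 1 rose. AT5G64120, a class III peroxidase outside this count, fell by 1.67, but it was found among neighbours picked for their falls. It therefore adds nothing to the count, and other peroxidases known by their locus alone are not counted. Prx37 had 2.04 and 1.92 on npr1-1 SA and 3.57 and 3.66 on npr1-1 water arrays, against 6.18 and 6.18 on Col-0 SA and 4.92 and 5.14 on Col-0 water arrays. PRX52, known from lignin formation, had 2.03 and 2.22 on npr1-1 SA and 1.06 and 0.66 on npr1-1 water arrays, against 3.99 and 4.32 on Col-0 SA and 3.90 and 3.86 on Col-0 water arrays. They fell by 2.81 (SE 0.0886) and 2.53 (SE 0.113), with npr1-1 arrays labelled SA the lower ones in Prx37 and the higher ones in PRX52. PRXR1 rose by 0.81.

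Jasmonate genes had 3 members lower and 0 higher of 4 measured, with a median of -1.97. The list was chosen with earlier results of these data known, and JRG21 and DLAH were named above for their large falls. JMT, the member not called, lay between 0.12 and 0.51 on all arrays, in the dimmest class of probe sets, where few were called. The count and the median therefore cannot decide whether jasmonate genes fell as a group. Besides JRG21 and DLAH, OPCL1, a CoA ligase of jasmonate synthesis, fell by 1.198 (SE 0.117). OPCL1 had 3.37 and 3.42 on npr1-1 SA and 5.76 and 5.63 on npr1-1 water arrays, against 5.52 and 5.15 on Col-0 SA and 5.93 and 6.36 on Col-0 water arrays, so its npr1-1 water arrays overlapped Col-0.

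Large enzyme families held both directions, and their medians lay near that of all probe sets. Of 47 UDP-glycosyltransferases, 15 were lower and 7 higher (median -0.07). UGT73D1 had 2.24 and 2.07 on npr1-1 SA and 4.32 and 4.46 on npr1-1 water arrays, against 6.99 and 7.06 on Col-0 SA and 4.66 and 4.81 on Col-0 water arrays, a fall of 2.60 (SE 0.0884) that lay mostly in the SA arrays. UGT85A2 fell by 1.40 (SE 0.0872) in both treatments. UGT78D1 and UGT78D2, which attach sugars to flavonols, each rose by 0.62 without overlap.

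Of 23 cytochrome P450s, mainly of family CYP71B, 9 were lower and 3 higher (median -0.06). CYP71B6 had 6.96 and 6.80 on npr1-1 SA and 6.67 and 6.36 on npr1-1 water arrays, against 8.66 and 8.71 on Col-0 SA and 8.13 and 7.75 on Col-0 water arrays, a fall of 1.61 (SE 0.11). CYP71B23, CYP71B24, CYP71B26 and CYP71B29 fell by 1.28, 1.11, 1.21 and 1.26, whereas CYP71B34, CYP71B35 and CYP71B36 of the same family rose by 0.69, 0.39 and 0.80.

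Of 21 beta-glucosidases, 6 were lower and 3 higher (median -0.05). BGLU45 and BGLU46, which are known to release lignin monomers from their glucosides, fell by 1.08 (SE 0.0964) and 2.39 (SE 0.0981). BGLU46 had 6.27 and 6.03 on npr1-1 SA and 4.08 and 3.79 on npr1-1 water arrays, against 7.21 and 7.09 on Col-0 SA and 7.72 and 7.70 on Col-0 water arrays. BGLU16 fell by 1.50 and BGLU44 rose by 0.97. Of 18 glutathione transferases and methionine sulfoxide reductases, which act on oxidised and foreign compounds, 5 were lower and 2 higher (median -0.12), but 2 were lower after leaving out replicate 1 of Col-0 SA or of npr1-1 water, and 3 after leaving out replicate 1 of npr1-1 SA. GSTU20 had the larger of the 2 rises, with 6.16 and 6.28 on npr1-1 SA and 5.86 and 5.67 on npr1-1 water arrays, against 3.48 and 3.42 on Col-0 SA and 5.22 and 5.40 on Col-0 water arrays, a rise of 1.61 (SE 0.0896). GSTU25 rose by 0.51, with -0.77 under SA and 1.78 in water.

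The 49 growth-related cell wall genes were xyloglucan hydrolases (XTH), expansins and trichome birefringence-like proteins. Of these, 8 were lower and 8 higher, near the shares of all genes. Their median level was 0.99, in the second dimmest class, for which those shares are too high. The median difference was 0.01, which was -0.09 with the arrays centred. Without npr1-1 water replicate 2, 5 were higher. XTH32 had 3.53 and 3.30 on npr1-1 SA and 3.25 and 3.12 on npr1-1 water arrays, against 1.15 and 0.99 on Col-0 SA and 2.23 and 2.40 on Col-0 water arrays, a rise of 1.61 (SE 0.0948) without overlap. XTH16 rose by 1.57, which joined 3.63 under SA with -0.48 in water, and XTH18 fell by 1.15 through the water arrays alone, at -2.30 in water and -0.00 under SA. Of 16 auxin genes of the GH3, Aux/IAA and YUC families, 3 were lower and 1 higher, and 12 were not called. GH3.3 fell by 1.40 in the mean of -4.77 under SA and 1.97 in water, and IAA18, an auxin repressor, fell by 0.41 (adjusted p = 0.0514 in limma without npr1-1 SA replicate 2). Of 11 cold and dehydration genes 2 were lower and 2 higher, with HVA22C at a rise of 1.22 without overlap, RD2 at a fall of 0.37 and LEA4-5 at a fall of 0.34. LEA4-5 had an adjusted p of 0.0570 to 0.0952 in limma when replicate 1 of any of the 4 groups was left out.

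**Figure D2:**
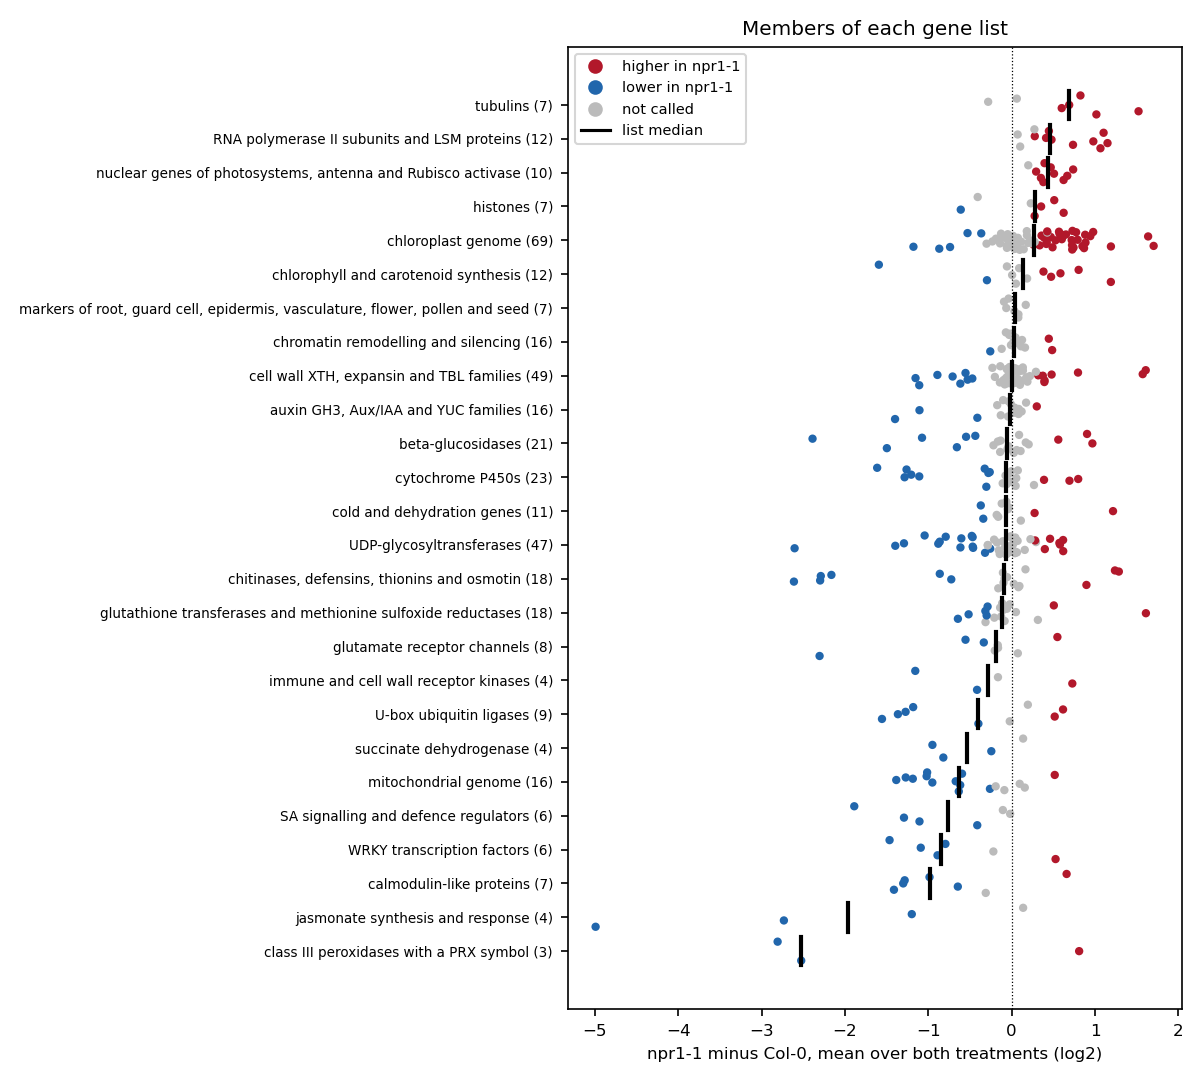
Difference of npr1-1 minus Col-0 on the log2 scale (horizontal axis) for each measured member of 26 gene lists, with the number of members in brackets. Points are genes, red for those higher and blue for those lower in npr1-1 at an adjusted p under 0.05, and the black bar is the median, which runs down to -2.53 in class III peroxidases with a PRX symbol and up to 0.69 in tubulins.

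Genes of photosynthesis were higher in npr1-1 in the mean, through the SA arrays. Of 10 nuclear genes for the photosystems, their antenna and Rubisco activase, 9 were higher and 0 lower, with a median of 0.43. That median was 1.26 under SA and -0.23 in water, beside -0.02 and 0.01 over all probe sets. LHCB4.2, which encodes the antenna protein CP29, had 8.93 and 8.96 on npr1-1 SA and 8.60 and 8.51 on npr1-1 water arrays, against 7.22 and 7.37 on Col-0 SA and 8.70 and 8.75 on Col-0 water arrays. Only the Col-0 SA arrays stood apart, and the mean difference was 0.74 (SE 0.0832, limma adjusted p = 2.29e-05). LHCB4.1 rose by 0.67 and PSBY, of photosystem II, by 0.62, again with the Col-0 SA arrays lowest. In a fit that counted the spread between treatments as error, 0 of the 10 genes were called higher.

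Chlorophyll and carotenoid synthesis had 5 genes higher and 2 lower of 12, with a median of 0.14 that was 0.77 under SA and -0.26 in water. HEMA2, a glutamyl-tRNA reductase isoform, was lower in npr1-1 in both treatments, with 3.19 and 3.30 on npr1-1 SA and 3.92 and 3.50 on npr1-1 water arrays, against 4.72 and 4.85 on Col-0 SA and 5.40 and 5.33 on Col-0 water arrays. It fell by 1.59 (SE 0.103). CHLI2, of magnesium chelatase, rose by 1.19, with 2.66 under SA and -0.28 in water, where it was not called. LYC, lycopene cyclase, rose by 0.80, with 1.23 under SA and 0.38, not called, in water. With the spread between treatments counted as error, neither CHLI2 nor LYC was called, and 0 genes of the list were called higher.

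Genes in the chloroplast genome were higher for 33 and lower for 5 of 69 measured, 20 and 3 of them without overlap, with a median of 0.26. The median was 0.62 under SA and 0.10 in water. The labelling of such arrays starts from poly(A) tails, which most chloroplast transcripts lack or hold only briefly, so the values report the labelled part of these RNAs. ndhJ, of the NDH complex around photosystem I, had 7.07 and 7.34 on npr1-1 SA and 7.18 and 7.31 on npr1-1 water arrays, against 5.57 and 4.82 on Col-0 SA and 5.81 and 6.16 on Col-0 water arrays. It rose by 1.64 (SE 0.152, adjusted p = 5.04e-06 in limma) without overlap. rpoC1 and rpoC2, subunits of the plastid RNA polymerase, rose by 0.79 and 0.72, while rpoB of the same complex was at -0.01 and not called. By complex, 4 of 15 photosystem II genes were higher and 4 lower, against 3 higher and 0 lower of 5 for photosystem I, of 6 for cytochrome b6f and of 6 for ATP synthase alike. Of 15 ribosomal protein genes 7 were higher and 0 lower, and of 10 NDH genes 4 were higher and 1 was lower. In a fit that counted the spread between treatments as error, 13 of the 69 genes were called higher and 3 lower.

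The 4 photosystem II genes that fell are neighbours in the chloroplast genome. psbJ, psbL, psbF and psbE, which follow each other in the annotation, fell by 0.36, 0.53, 0.74 and 1.18. psbE, a subunit of cytochrome b559, had 4.73 and 5.35 on npr1-1 SA and 5.70 and 4.68 on npr1-1 water arrays, against 5.70 and 6.16 on Col-0 SA and 6.61 and 6.70 on Col-0 water arrays, with npr1-1 and Col-0 arrays just apart. The next 3 genes, petL, petG and psaJ, rose by 1.19, 0.85 and 1.70. psaJ, of photosystem I, had 6.56 and 6.71 on npr1-1 SA and 6.21 and 6.84 on npr1-1 water arrays, against 3.53 and 4.86 on Col-0 SA and 5.80 and 5.31 on Col-0 water arrays, where the Col-0 SA replicates were the farthest from each other. The remaining chloroplast gene that fell was ndhA, by 0.87 (SE 0.18). These neighbours were picked out after their values were seen.

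**Figure D3:**
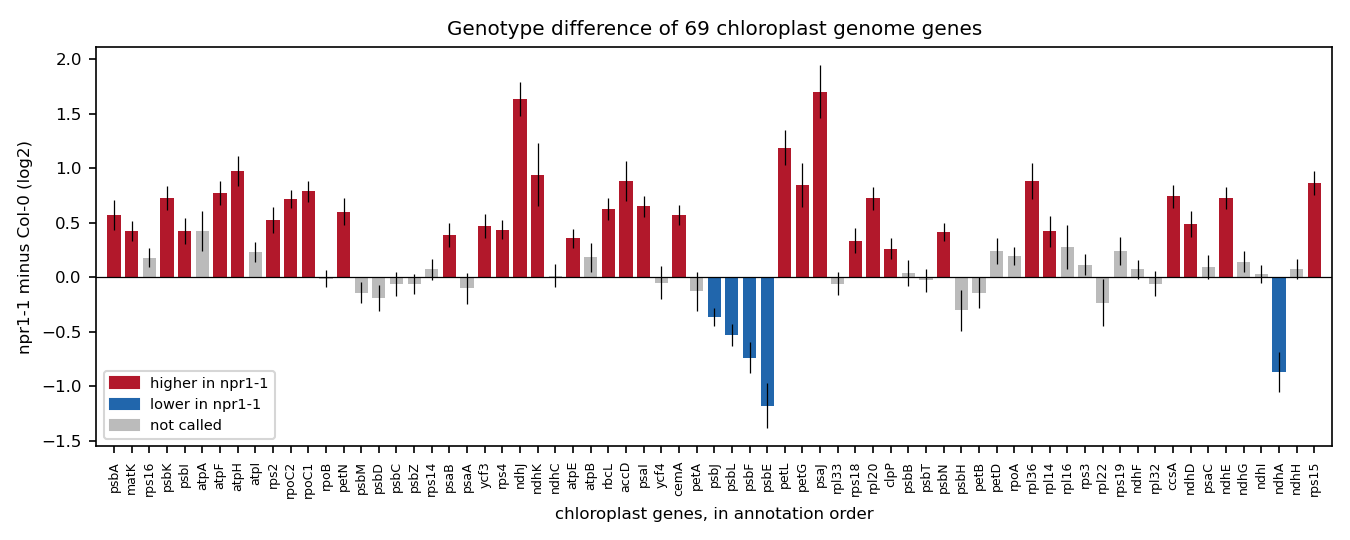
Difference of npr1-1 minus Col-0 on the log2 scale (vertical axis) of the 69 measured genes of the chloroplast genome, in the order of the annotation; bars are differences and lines their SE. The 4 neighbours from psbJ to psbE are lower in npr1-1 (-0.36 to -1.18), and the next 3, petL, petG and psaJ, are higher (0.85 to 1.70).

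Mitochondrial transcripts ran the other way. They too were labelled from poly(A) tails, so their values also report only the labelled part of these RNAs. Of 16 genes of the mitochondrial genome 11 were lower and 1 was higher in npr1-1, with a median of -0.63, which was -1.13 under SA and -0.03 in water. cox2, of cytochrome c oxidase, had 1.58 and 1.94 on npr1-1 SA and 2.30 and 2.15 on npr1-1 water arrays, against 4.26 and 4.13 on Col-0 SA and 2.63 and 2.50 on Col-0 water arrays. It fell by 1.38 (SE 0.102, adjusted p = 8.81e-07 in limma), and the Col-0 SA arrays were those that stood apart. nad6 and nad5, of complex I, fell by 1.27 and 1.01 on probe sets that match several transcripts. nad2 rose by 0.52. In a fit that counted the spread between treatments as error, 0 of these genes were called lower. Succinate dehydrogenase, the nuclear-encoded complex II, was lower for 3 and higher for 0 of 4 genes. SDH1-1, its flavoprotein subunit, had 5.59 and 5.77 on npr1-1 SA and 6.68 and 6.43 on npr1-1 water arrays, against 7.21 and 7.42 on Col-0 SA and 6.43 and 6.68 on Col-0 water arrays. It fell by 0.82 (SE 0.103), SDH2-1 fell by 0.95 and SDH2-2 by 0.24, each of them called under SA and not in water. SDH2-2 was no longer called in 11 of 16 alternatives. The organelle genes share their libraries, and the labelling controls above were lower on the npr1-1 arrays, while the 3 prime to 5 prime difference of actin was 5.05 ± 0.87 on npr1-1 and 4.33 ± 0.96 on Col-0 arrays (SD, n = 4 each, two-sided exact permutation test p = 0.286). The part of these values in the organelle results was not tested.

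Subunits of RNA polymerase II and LSM proteins, the rings that bind the ends of small RNAs and decaying mRNAs, were higher for 9 and lower for 0 of 12, with 8 of 12 above Col-0 on all arrays. The median was 0.48 under SA and 0.54 in water, and 0.46 in the mean. NRPB12 had 6.22 and 6.04 on npr1-1 SA and 5.30 and 5.47 on npr1-1 water arrays, against 4.80 and 4.47 on Col-0 SA and 4.53 and 4.62 on Col-0 water arrays. NRPB6A had 5.84 and 5.83 on npr1-1 SA and 5.87 and 5.94 on npr1-1 water arrays, against 5.42 and 5.22 on Col-0 SA and 4.86 and 5.04 on Col-0 water arrays. The 2 subunits rose by 1.15 (SE 0.1) and 0.74 (SE 0.0885), and npr1-1 was above Col-0 with either treatment. LSM3A rose by 1.10 (SE 0.104) and LSM6A by 0.98 (SE 0.162).

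Tubulins were higher for 5 and lower for 0 of 7, with a median of 0.69 that was 1.81 under SA and -0.02 in water. TUB6 had 5.19 and 5.28 on npr1-1 SA and 4.77 and 4.85 on npr1-1 water arrays, against 3.23 and 2.46 on Col-0 SA and 4.40 and 3.91 on Col-0 water arrays, a rise of 1.52 (SE 0.158). TUA6 rose by 1.02 and TUB7 by 0.83, and with the spread between treatments counted as error 2 tubulins were called. Histone genes were higher for 4 and lower for 1 of 7, among them HTB2 with a rise of 0.62 (SE 0.102) in both treatments, HTB1 with a rise of 0.51 and HTB11 with a fall of 0.61, all of them H2B genes. Without Col-0 SA replicate 2 the number of higher histone genes was 2.

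Of 16 genes of chromatin remodelling and silencing 2 were higher and 1 was lower. Their median level was 0.63, in the second dimmest of the 4 classes of probe sets, where 24.8% were called. NRPE7 and NRPD7, of the plant-specific RNA polymerases of DNA methylation, rose by 0.49 and 0.45, and SWI3A, of SWI/SNF complexes, fell by 0.26 with an adjusted p of 0.0452 in limma, which was between 0.0553 and 0.161 in 7 of the 8 fits that left out an array.

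No marker of other organs and cell types was called between the genotypes in the mean. This held for the 7 measured markers of root, guard cell lineage, epidermis, flower and pollen. Of these, 6 were at 1.02 or below on every array. They included the stomatal regulators SPCH and MUTE, the anther factors SPL and AMS and the trichome repressor TRY (difference 0.08). The median level of the 7 markers was 0.37, in the dimmest class of probe sets, where 2.02% were called. With so few calls at such levels, the lack of a call in these dim markers cannot decide whether organ or cell composition differed. PYK10, a root beta-glucosidase, was well expressed as in a whole seedling, with 7.08 and 7.29 on npr1-1 SA and 5.75 and 5.54 on npr1-1 water arrays, against 4.83 and 4.97 on Col-0 SA and 7.49 and 7.71 on Col-0 water arrays. Its mean difference of 0.17 (SE 0.098, adjusted p = 0.217 in limma) was made of 2.29 under SA and -1.95 in water, so the level of this root marker differed between the genotypes within each treatment, in opposite directions, and its part in the results within a treatment was not tested.

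The difference over both treatments was often a mean of unequal parts. Between the SA arrays 8945 probe sets (39.3%) were called in either direction, and between the water arrays 6134 (27.0%). Among the 4847 probe sets that rose, 1162 were called higher both under SA and in water, 2172 under SA alone and 827 in water alone, and 484 were called in opposite directions. Among the 3747 that fell, 1199 were called lower in both, 1438 under SA alone and 601 in water alone, and 332 in opposite directions. The median of the rises was 0.82 under SA and 0.36 in water, and that of the falls was -0.79 under SA and -0.43 in water. An interaction of genotype and treatment was called in 57.2% of the called probe sets, beside 32.0% of all. A fit that counted the spread between treatments as error called 2541 probe sets and 66 members of the lists, against 207 members before, and 43 of the named genes were then no longer called, among them GRX480, UGT76B1, PDF1.4, UGT73D1, XTH16, LHCB4.2, cox2 and TUA6. In a further 953 of the 14152 probe sets not called, npr1-1 and Col-0 differed in both treatments but in opposite directions. Across the 22746 probe sets the differences under SA and in water, which share no array, had a Pearson correlation of 0.01 and a Spearman correlation of 0.11, given as a description since probe sets are not independent. These counts, shares and correlations of the differences within a treatment all rest on the treatment labels of the npr1-1 arrays.

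**Figure D4:**
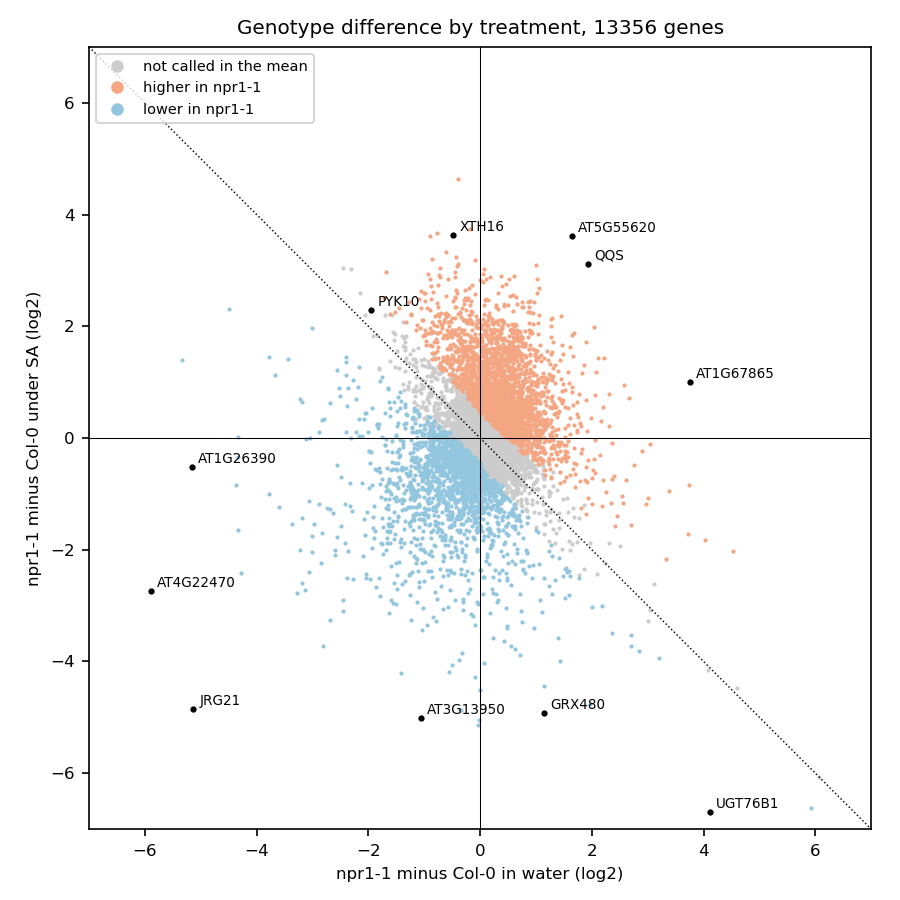
Difference of npr1-1 minus Col-0 in water (horizontal axis) and under SA (vertical axis), both log2, for 13356 genes. Colours mark genes higher or lower in npr1-1 in the mean of both, the dotted line is where that mean is 0, and JRG21 (-4.85 under SA, -5.14 in water) lies far from it while PYK10 (2.29 under SA, -1.95 in water) lies close to it.

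**Figure D5:**
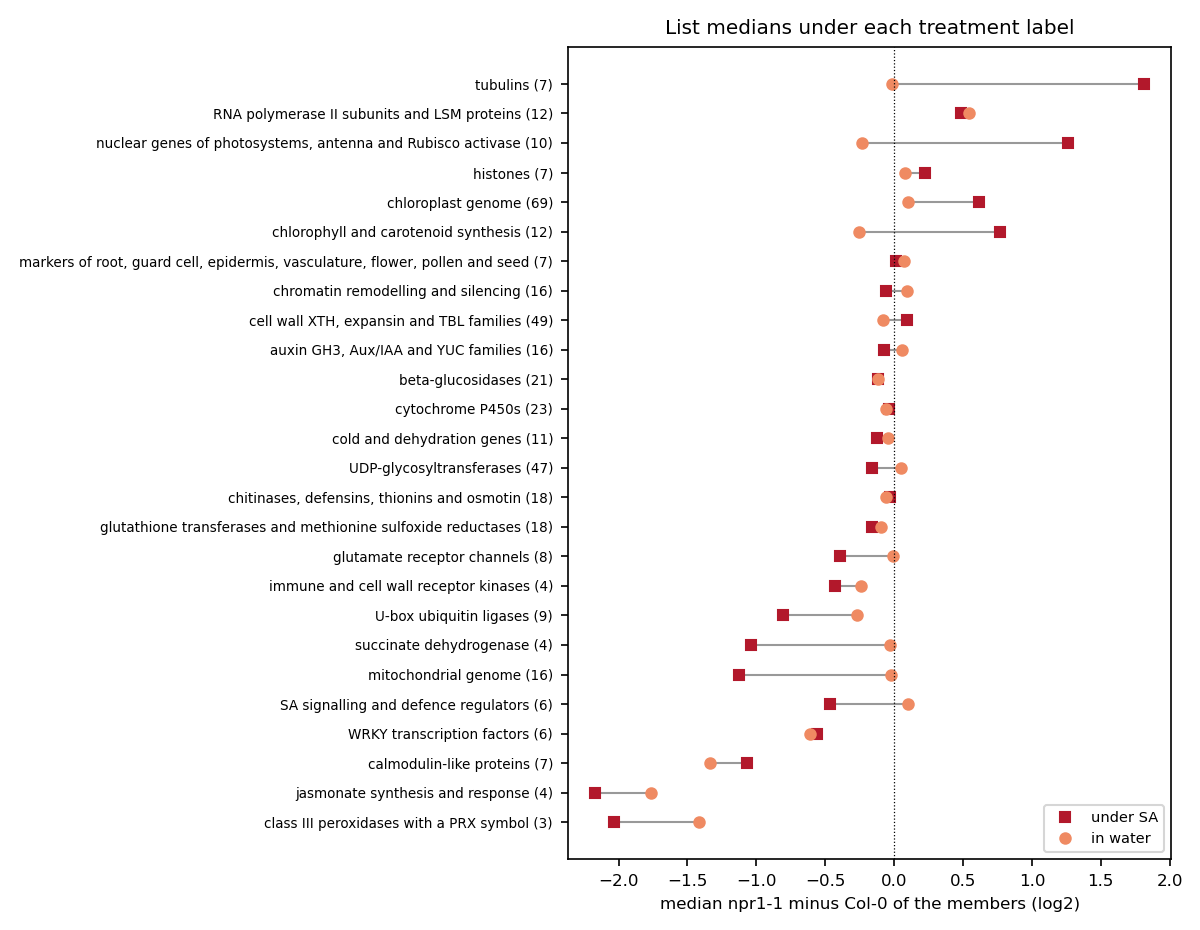
Median difference of npr1-1 minus Col-0 on the log2 scale (horizontal axis) of the measured members of each gene list, under SA (squares) and in water (circles). RNA polymerase II subunits and LSM proteins have nearly the same median in both (0.48 and 0.54), and tubulins do not (1.81 and -0.02).

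Of 18 genes whose transcripts the study examined by itself, 7 had a probe set with a single symbol here. Besides GRX480, AT1G05700 had 1.59 and 1.66 on npr1-1 SA and 0.73 and 0.28 on npr1-1 water arrays, against 4.04 and 4.21 on Col-0 SA and 2.60 and 2.49 on Col-0 water arrays. In both genotypes the SA arrays were higher, and npr1-1 was lower with either treatment, by 2.27 (SE 0.108, limma adjusted p = 3.42e-08). AT1G66100 had 3.28 and 3.30 on npr1-1 SA and 6.09 and 6.12 on npr1-1 water arrays, against 2.87 and 2.47 on Col-0 SA and 5.38 and 5.40 on Col-0 water arrays, a rise of 0.67 (SE 0.0981) with an interaction of -0.09 that was not called. MSRB9, a methionine sulfoxide reductase, fell by 0.64 and AT5G38700 fell by 0.63, AT5G38700 with 1.14 under SA and -2.39 in water. AT4G23780 and AT3G26130 were at 0.34 or below on every array and were not called.

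On the chromosomes, the share of genes higher in npr1-1 lay between 18.3% and 21.0% and the share lower between 12.1% and 15.5% on each of the 5 nuclear ones. At 2 places, 3 genes that follow each other among those measured fell by at least 1 without overlap. On chromosome 1 these were AT1G51850, AT1G51860 and AT1G51890, with differences between -1.62 and -1.52. On chromosome 5 they were AT5G64100, AT5G64110 and AT5G64120, which encodes a class III peroxidase, with differences between -2.03 and -1.67. No such run was found for rises. These runs were looked for after the fit was known, and similar sequences next to each other can share signal on an array.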

How the data were processed

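Total RNA of whole seedlings was hybridised to 8 Affymetrix ATH1 arrays, 2 for each of 4 groups taken from the sample labels. The deposited log2 values, 1 per probe set and array, had been background-corrected, normalized between arrays and summarized over probes by the authors, whose methods name GCOS and RMA while Affymetrix Expression Console stands in the submitters' processing notes. Versions are not given in the sources used here. RMA usually gives all arrays a shared distribution, but the deposited array medians ranged between 1.34 and 1.48, so how the arrays were scaled to each other is not settled, and a shift of all transcripts in 1 direction could be lost or added. Precision is limited by the number of arrays.

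The 64 control probe sets were left out of the fit and the other 22746 were tested without a filter. Names came from the platform annotation (13513 probe sets with 1 symbol, 503 with several, 8730 with none listed) and the TAIR10.1 gene table. Where several probe sets reported a gene (146 genes), the brightest over all arrays was used.

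Group means were fitted with limma 3.58.1 in R 4.3.3 (lmFit, contrasts.fit, eBayes without trend, Benjamini-Hochberg over all probe sets), and statmod 1.5.0 served the robust alternative. The contrast was the mean of npr1-1 SA and npr1-1 water minus the mean of Col-0 SA and Col-0 water. The fit was tested on simulated data. Named genes are the 15 largest rises and 15 largest falls among called genes without overlap. They also include the 3 members of each of 26 lists with the smallest adjusted p. The genes whose transcripts the study measured as class representatives were added. Members and lists were chosen with earlier results of these data known. Since the labels name biological replicates, p-values measure the spread between such samples. Alternatives were the replicate block, 2 scalings, a filter, other variance models and thresholds, and each array left out. NPR1 and PR1 were not analysed here, and 1 gene family is not reported here.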

Additional observations from a re-analysis of the deposited data

Results flagged for a closer look

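For 71 of the 108 named genes the difference of npr1-1 minus Col-0 was not the same under SA as in water, by the interaction term of limma at an adjusted p under 0.05. Over all probe sets this held for 32.0%, and over the probe sets called between genotypes, among which most of the named genes were picked, for 57.2%. The interaction is the difference under SA minus that in water, in log2 units, with 2 arrays in each of the 4 groups. Its size, its sign and its call rest on the treatment labels of the npr1-1 arrays, and the cause of these differences was not tested.

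Among 25 of these genes npr1-1 stood lower relative to Col-0 under SA than in water. The interaction was -10.81 in UGT76B1, -6.74 in GH3.3, -6.06 in GRX480, -4.52 in UGT73D1, -3.96 in AT3G13950, -2.99 in nad6 and -2.79 in Prx37. It was -2.76 in AT1G67865, -2.55 in GSTU25, -2.19 in PUB24, -2.15 in RD2, -2.10 in cox2, -1.93 in nad5 and -1.88 in WRKY53. Next came -1.68 in SDH2-1, -1.65 in GLR2.7, -1.64 in SDH1-1, -1.63 in AT1G66940, -1.49 in OPCL1, -1.33 in EFR and -1.04 in ATGLR1.2. Smaller ones were -0.90 in AT5G12340, -0.80 in AT5G25840, -0.68 in AT2G04795 and -0.67 in WRKY6.

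Among the other 46 genes npr1-1 stood higher relative to Col-0 under SA than in water. The value was 4.65 in AT1G26390, 4.35 in PDF1.4, 4.24 in PYK10, 4.11 in XTH16, 3.53 in AT5G38700, 3.16 in AT4G22470 and 2.93 in CHLI2. Values below these were 2.77 in BGLU46, 2.69 in AT4G16260, 2.31 in GSTU20, 2.30 in XTH18, 2.29 in AT5G16030 and 2.26 in PRXR1. Further values were 2.11 in AT5G01740, 1.98 in TUB7, 1.98 in AT5G55620, 1.91 in LHCB4.1, 1.87 in AT1G14550, 1.82 in TUA6 and 1.82 in LHCB4.2. Next stood 1.82 in AT4G28240, 1.80 in PSBY, 1.74 in TUB6, 1.63 in AT1G78020, 1.58 in AT2G14460, 1.48 in XTH32 and 1.31 in THE1. Then came 1.22 in ChiC, 1.199 in QQS, 1.15 in HVA22C, 1.13 in WES1, 0.99 in PRX52, 0.86 in HTB1 and 0.85 in LYC. Lower values were 0.81 in LSM3A, 0.78 in rpoC1, 0.77 in LEA4-5, 0.75 in BGLU45, 0.73 in AT2G15000, 0.69 in NRPB12 and 0.68 in WRKY22. The lowest values were 0.67 in DLAH, 0.67 in PUB22, 0.61 in UGT85A2, 0.60 in OSM34 and 0.57 in rpoC2.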

How the results depend on the processing

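The count of 8594 probe sets stayed within 1.5 times under quantile normalization (8583), centring on the median (9193), the dimmest 25% left out (8623), trended and robust variance (8707), no moderation (5978) and an adjusted p under 0.01 (6503), and ran between 7500 and 8069 without 1 array. It moved to 3190 (1659 higher and 1531 lower in npr1-1) with genotype and treatment as additive terms and to 2541 (1397 and 1144) with 2 genotype means only, since both count the interaction as error and the fit of 2 means also the treatment effect. The counts of the additive fit rest on the treatment labels of the npr1-1 arrays, and those of the 2 means do not. A size of at least 1 left 1630 (731 and 899). The count of list members called, 207 in all, was 82, 66 and 59 under these 3 settings. With a gap of at least 1, 188 probe sets were without overlap. The replicate numbers did not pair the samples, as deviations of same-numbered arrays correlated between -0.19 and 0.08. With the number as a block, 8444 probe sets were called (4768 and 3676), SDH2-2 (adjusted p = 0.0527 in limma) and SWI3A (0.0625) were no longer called.

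Over the alternatives of named genes 1605 comparisons with the reported fit kept direction and call, 113 lost the call, 0 gained it and 7 changed sign. The sign changed only in genes not called. With arrays centred these were TRY (-0.0130), SPCH (-0.0113), AT4G23780 (-0.0796) and AT3G26130 (-0.0223), and the hybridization controls turned to -0.0239. Leaving out an array gave -0.0299 to 0.0560 in AT4G23780, and among the controls -0.133 to 0.232 in the 3 prime to 5 prime difference of ubiquitin, -0.0440 to 0.172 in the hybridization controls and -0.145 to 0.277 in 25S rRNA. The medians of the auxin list (0.00 after quantile normalization) and, with arrays centred, of the XTH, chromatin and marker lists (-0.09, -0.07 and -0.06) also changed sign. With 2 arrays in a group, 94 of 100 simulated differences of 1 and 45 of 100 of 0.5 were called. The simulation changed only these probe sets between genotypes among 22746, without an interaction and with the spreads reassigned at random. In the data 37.8% were called, so the threshold differed and these shares do not give the detection rate of the reported fit.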
